A study of Rattus norvegicus with 14 samples.

Results

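The vehicle control of the series is IEC-6, an established line of cells derived from the rat small intestine and described by the labels as intestinal crypt cells, kept for 72 h with the solvent DMSO alone. The arrays were chosen by their titles and treatment labels, as the 4 of 14 that received DMSO and no drug. The other 10 arrays, from cells given a non-steroidal anti-inflammatory drug, enter no result here except 1 alternative fit. All 4 DMSO arrays are of the same commercially obtained line and the same time. The labels give no DMSO concentration, passage or confluence. Per the series' design text the cells were grown as monolayers and cultures were pooled before hybridisation to obtain enough material, so an array is not a single culture. That it is 1 line in monolayer culture limits it as a model of the crypt. Gene symbols follow the platform annotation, updated through gene identifiers, and where a gene has several probe sets the brightest on average over the 4 arrays stands for it.

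As background, the crypt epithelium of the small intestine holds stem cells that give rise to absorptive enterocytes and to secretory goblet, Paneth, enteroendocrine and tuft cells. The epithelial state rests on E-cadherin junctions, claudins and keratins, and intestinal identity on transcription factors such as Cdx2, Hnf4a and the Gata proteins. Below the epithelium lie fibroblasts and smooth muscle, which make collagen matrix and many of the Wnt, BMP and Hedgehog signals that set the crypt.

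The arrays carry a digit, 1 or 2, and either no suffix (arrays 1 and 2, called plain here) or the suffix b (arrays 1b and 2b), whose meaning is not given in the sources used here. These label sets stood apart. Pearson's r of log2 signals over 16103 probe sets was 0.992 within each set and 0.923 to 0.931 between them. Of those probe sets, 7357 (45.7%) differed between the sets in limma at an adjusted p under 0.05, 3787 of them higher in b and 3570 lower, with 2 arrays against 2. Other measures moved with the set. The 3' to 5' ratio of the beta-actin control, which rises as labelled RNA gets shorter, was 1.498 and 1.639 on the plain arrays and 1.338 and 1.267 on the b arrays. That of the Gapdh control went the other way, with 0.9475 and 0.9449 on the plain arrays and 0.9998 and 0.9972 on the b arrays. Of 18 probe sets for spiked hybridisation controls 17 were brighter on the plain arrays, with a median ratio of 1.81. Their part in the differences between sets was not tested, and a batch, a culture and a hybridisation cannot be told apart from the set. As it is not stated whether the pools behind the arrays were separate, p-values measure only the spread between arrays. Levels are therefore given on every array. A probe set was tested where it had 100 or more on at least 2 arrays, so a gene under 100 on both arrays of a set entered only through the other set, where it is high, and had to differ. For such genes the log2 difference is given without a p-value.

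Signals are the authors' deposited intensities, scaled to a target of 500 on each array per the labels. A gene is called present here when its signal was 500 or more on all 4 arrays, and absent when it was under 100 on all 4. Both words describe signal levels and are not detection calls. For scale, 27 probe sets for bacterial transcripts had a median of 6.28 and a highest value of 50.7. Of 14217 named genes 5179 were present (36.4%) and 4651 absent (32.7%), and the others lay between. The plain arrays alone gave 5608 present (39.4%) and the b arrays alone 5695 (40.1%). Probe sets differ in their response, so a level is not compared between genes as an amount of transcript. Among genes with more than 1 probe set, 578 of 2123 present genes had another probe set under 100 on all 4 arrays. Of the present genes named by rule below, 73 had several probe sets and 24 of these had such a one. Dsp, Gata6, Egfr, Klf5, Dclk1, Nectin2, Lama5 and Itga6 are among them. In the same way 5 of 42 cytosolic ribosomal protein genes were not present. These were Rpl28, Rpl39, Rpl30 and Rps13, named after their values were seen, and Rpl3l, the muscle form of Rpl3. Rpl30 had 26.3 and 67.9 on the plain arrays and 153 and 121 on the b arrays. A low signal from 1 probe set is thus weak evidence about the gene. Counts of gene families are over the members of the lists. All 30 proteasome subunits were present and all 17 olfactory receptors absent.

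The brightest named genes belonged to translation, mitochondrial respiration, the cytoskeleton and the matrix. Ranked by the lowest of their 4 signals, 20 of the top 30 were ribosomal proteins. Rps23 headed them with 30980.3 and 31298 on the plain arrays and 27652 and 27596 on the b arrays. Rps29 had 31383 and 33268, and 26309.9 and 26926 in b. Elongation factors Eef1a1, Eef1g and Eef1b2, which bring charged tRNAs to the ribosome or recycle that factor, were also among the 30. Tmsb4x encodes thymosin beta 4, which binds actin monomers, and had 31262 and 33383 against 25972 and 25651. COX1 and COX2 in this ranking are the mitochondrial subunits of cytochrome c oxidase and not the cyclooxygenases. COX1 had signals of 25305 to 28930.5. The redox protein Txn1 had 24788 to 25744 and the calcium-binding protein S100a6 22504 to 27452.

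Vim and Col3a1, both mesenchymal by textbook use, were also among the 30. Vim, the intermediate filament vimentin, had 23377 and 23286 on the plain arrays and 22214 and 21944 on the b arrays. Col3a1, the chain of type III collagen, had 21825 and 21757 and 25336 and 24877. No direction between sets is read for these genes, since 12 of the 30 changed sign under quantile normalisation.

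**Figure D1:**
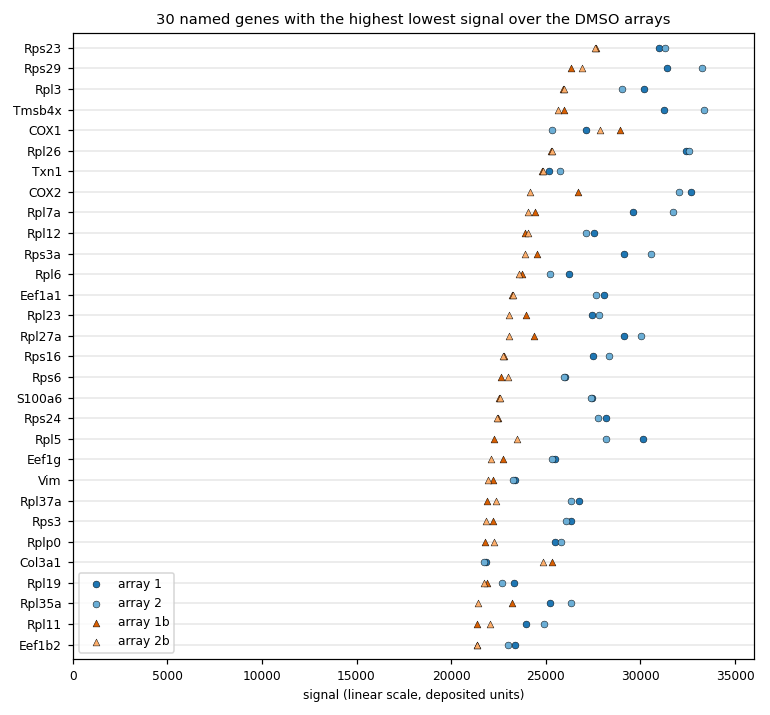
Signals of the 30 named genes with the highest lowest signal on the DMSO arrays, on a linear axis in the deposited units, with 1 point per array (circles, arrays 1 and 2; triangles, arrays 1b and 2b). The lowest point is 21377, on a b array, and 20 of the genes are ribosomal proteins.

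Epithelial genes were split. Of 117 measured members of the 6 epithelial lists 27 were present (23.1%, against 36.4% of all named genes) and 52 absent (44.4%, against 32.7%). Cdh1, E-cadherin, which joins neighbouring epithelial cells, had 7963 and 7814 on the plain arrays and 3295 and 3015 on the b arrays. It was high on every array, with the plain arrays clearly above the b arrays (log2 difference, b minus plain, -1.31 ± 0.059; limma adjusted p 2.57e-07; errors of log2 differences are standard errors of this fit of 2 arrays against 2, and the difference is on the log2(signal + 50) scale). A second probe set of Cdh1 was under 100 throughout. Tspan8, a tetraspanin of gut epithelium, had 29286 and 29378 and 20714 and 19514. Spint2, an inhibitor of epithelial serine proteases, and Cdh3, P-cadherin, were the other present members of the 21 measured in the adhesion and polarity list. Cdh3 lay at 2144 to 2577.

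Epcam, the pan-epithelial adhesion molecule, was absent at 2.31 to 77.2, from its single probe set. So were the epithelial splicing regulator Esrp1 (4.27 to 46.98) and the Ets factors Elf3 (9.03 to 66.9) and Ehf (3.55 to 87.4). In all 10 of the 21 were under 100 on every array.

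Of 17 keratins 2 were present. Krt14, a keratin of basal layers, had 11906 and 11085 and 13160.2 and 13113, and Krt8, of simple epithelia, 3278 and 3276 and 5881 and 5909. Krt8 was higher on both b arrays (0.84 ± 0.053, limma adjusted p 2.02e-06). Krt18, which pairs with Krt8 in filaments, was absent at 1.48 to 24.4, again from 1 probe set. Krt5, the usual partner of Krt14, was absent at 8.46 to 48.7. Krt19 had 72.3 and 119 against 345 and 569, and Krt20, of differentiated villus cells, 8.01 and 74.5 against 101 and 93.3. The sets do not overlap for Krt19. Krt20 did not pass the signal filter and was not tested. Its signals on both plain arrays and on array 2b were under the cut for absent, where no order is read.

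Junction genes differed by class. Some scaffold and catenin genes were bright. Tjp1, the tight junction scaffold ZO-1, had 11810.0 and 12144 and 7044 and 6963. Ctnnb1, beta-catenin, had 21104 and 22467 and 16987 and 18106, and the desmosomal plaque protein Dsp 8237 and 8440.0 and 6118 and 6527. Of 12 claudins measured none was present and 10 were absent, among them Cldn2, Cldn3 and Cldn4, at 4.78 to 26.1, 14.3 to 25.4 and 10.6 to 56.1. The junctional adhesion molecule F11r was present, with 2776 and 2725 and 1159.8 and 1145. Nectin2, an adhesion molecule of adherens junctions, was present at 742 to 1457, and so was Nectin3, named after its values were seen, at 858 to 1048. The desmosomal cadherins Dsg1 and Dsg2 were absent. Occludin, Ocln, had 206 and 201 on the plain arrays and 20.4 and 16.7 on the b arrays.

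Of 9 tight junction genes tested 7 were lower in b and none higher, where 23.3% of 9308 named genes tested were lower and 25.9% higher. The list's median log2 difference was -0.86, and 0.02 over all named genes tested. Of the 9, 3 had passed the signal filter through 1 set. Lsr, a receptor of tricellular junctions, had 2858 and 2694 against 611 and 460.3 (-2.28 ± 0.12, limma adjusted p 5.95e-07). Desmosome and adherens junction genes had 10 lower and 2 higher of 14 tested, with a median of -0.46. Keratins had 6 higher and none lower of 8 tested, beside the same shares of all named genes. Of the 8 keratins, 2 had passed the filter through 1 set.

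**Figure D2:**
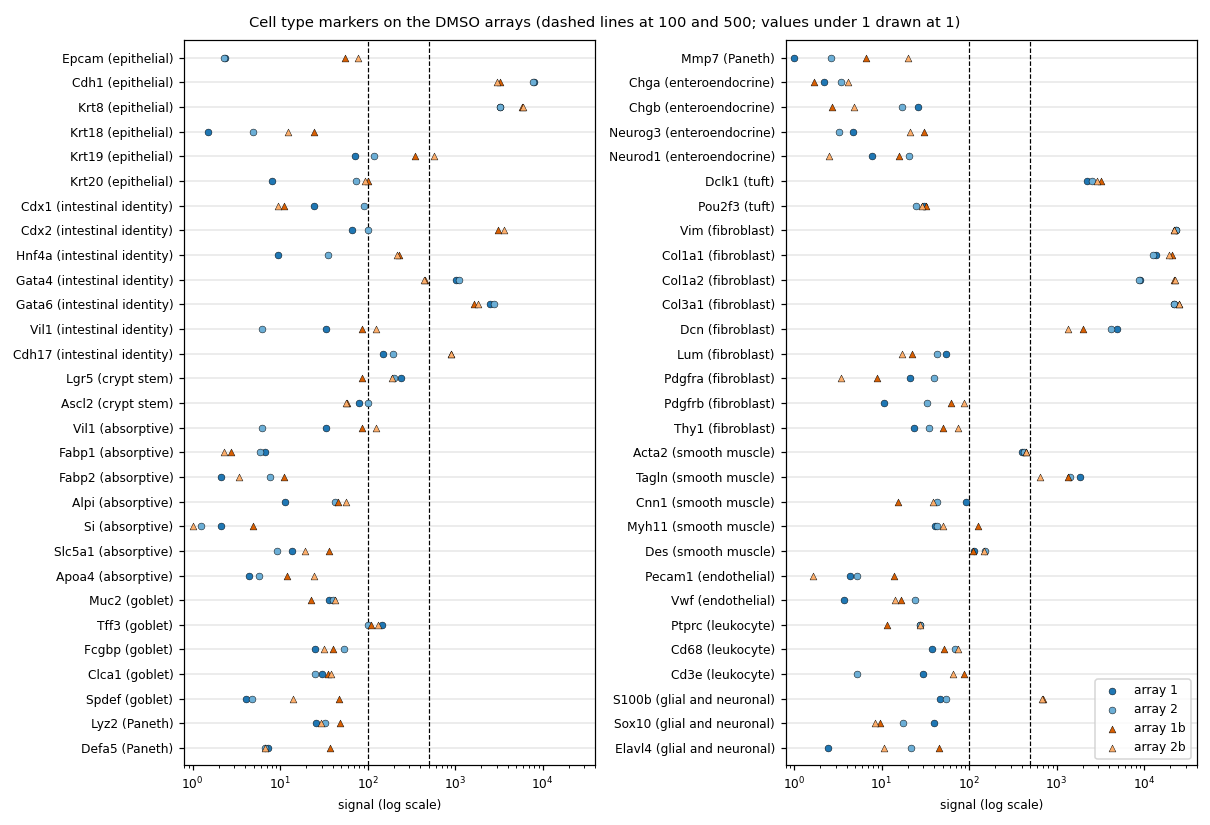
Cell type markers on the 4 DMSO arrays, on a log axis with dashed lines at 100 and 500 and 1 point per array (circles, arrays 1 and 2; triangles, arrays 1b and 2b). Cdh1, Krt8, Vim and the collagens lie right of 500 on every array, Fabp1, Si, Muc2 and Chga left of 100, and Cdx2 lies on either side.

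Transcription factors of the gut endoderm were present in part. Foxa2, a pioneer factor of endoderm, had 4496 and 5099 and 4498 and 4359, and Klf5, of proliferating crypt cells, 4722 and 4889.7 and 4852 and 5189. The sets overlap for both genes, and neither was called. Klf4, of differentiating epithelium, had 7137 and 7388 and 5159.9 and 4793. Gata6 had 2522 and 2777 and 1621 and 1812, and Gata4 1032 and 1094 and 454 and 439. Both Gata genes were higher on the plain arrays (-1.16 ± 0.10 for Gata4, limma adjusted p 1.04e-05). Cdx1 was absent at 9.39 to 90.1, as were Foxa1 and the nuclear receptors Nr1i2 and Nr1h4, which sense xenobiotics and bile acids. Of the 20 measured 5 were present (25%, against 36.4% of all named genes) and 11 absent (55%, against 32.7%).

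Cdx2, the homeobox factor that specifies intestinal epithelium, had 66.9 and 99.8 on the plain arrays and 3072 and 3607 on the b arrays. It was thus under 100 on both plain arrays and far above 500 on both b arrays (log2 difference 4.67 ± 0.14). Its 1 probe set passed the signal filter through the b arrays only, so it had to differ. This pattern, 500 or more on both b arrays and under 100 on both plain arrays, was found for 20 of 14217 named genes (0.141%), and its reverse for 11 (0.0774%). Hnf4a, a nuclear receptor of enterocytes and hepatocytes, had 9.44 and 34.95 and 227 and 217 (1.94 ± 0.21). This is the brightest of 3 probe sets, and the other 2 were under 100 on all 4 arrays. With 200 in place of 50 added to each signal the difference of Hnf4a was 0.93, and it too had passed the filter through b alone.

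Further genes of intestinal epithelium were higher in b. Cdh17, the liver-intestine cadherin, had 151 and 193 against 891 and 898. Lgals4, a galectin of the enterocyte surface, had 141 and 121 against 915 and 853, and Cdhr5, a cadherin of the brush border, 52.9 and 55.3 against 484 and 431. The limma log2 differences were 2.10 ± 0.13, 2.37 ± 0.12 and 2.28 ± 0.15, with adjusted p 1.46e-06 for Cdh17 and 5.82e-07 for Lgals4. Cdhr5 had passed the filter through b alone, and its difference was 1.37 with 200 added to each signal. These were not a general rise: of 100 tested epithelial, absorptive and secretory genes 36 were higher and 37 lower in b, against 25.9% and 23.3% of all named genes tested. Of the 100, 8 of 61 epithelial, 6 of 26 absorptive and 5 of 13 secretory genes had passed the filter through 1 set. Among all 9308 named genes tested 406 had. Genes of that kind had to differ, so the shares are not like for like. Cdh1, Lsr, Gata4 and Gata6 had the opposite sign to Cdh17, Lgals4 and Cdhr5. The plot of these genes by array shows the split.

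**Figure D3:**
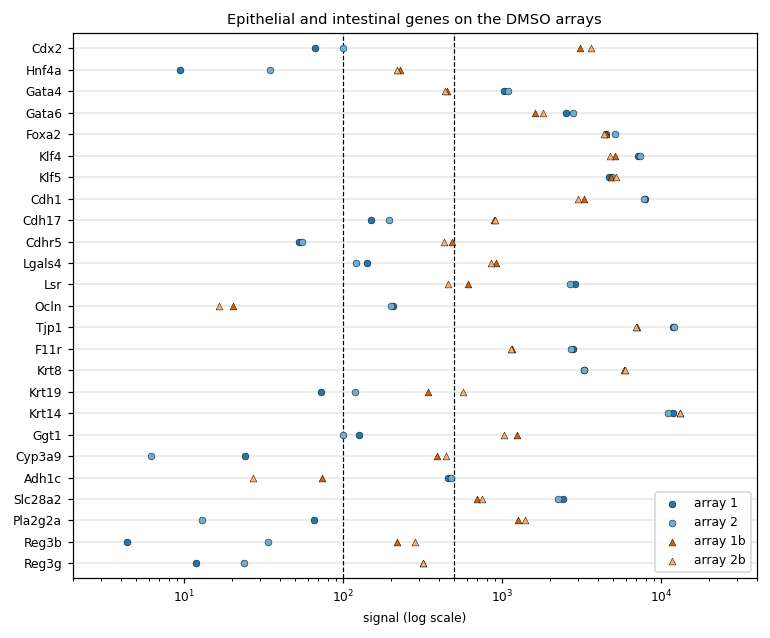
Signals of 25 epithelial and intestinal genes on the 4 DMSO arrays, on a log axis with dashed lines at 100 and 500 and 1 point per array (circles, arrays 1 and 2; triangles, arrays 1b and 2b). Cdx2, Hnf4a, Cdh17, Cdhr5 and Lgals4 have both triangles right of both circles, and Cdh1, Lsr, Ocln and Gata4 have them left.

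Windows before start sites were searched because Cdx2 differed most among these genes. Those shown are of Cdx2, Cdhr5, Lgals4 and Pla2g2a, a gene higher in b that is described below. Neither window of Hnf4a, not shown, has a match. All windows shown but that of Cdx2 hold a match, while most genes searched have none, so those shown are not typical. The motif searched is CATAAA, the core of the sequence that CDX proteins bind, on both strands, so that the other strand reads TTTATG, in the 250 bases before each RefSeq start site (build GRCr8). Matches are in capitals and the windows run 5′ to 3′ in the direction of the gene. Cdx2 itself (chr12:12762654-12762903, plus strand) has no match, Cdhr5 (chr1:205811093-205811342, minus strand) has 1 at -91 from the start site, Lgals4 (chr1:93252035-93252284, plus strand) 1 at -241 and Pla2g2a (chr5:156359475-156359724, plus strand) 1 at -218.
Cdx2: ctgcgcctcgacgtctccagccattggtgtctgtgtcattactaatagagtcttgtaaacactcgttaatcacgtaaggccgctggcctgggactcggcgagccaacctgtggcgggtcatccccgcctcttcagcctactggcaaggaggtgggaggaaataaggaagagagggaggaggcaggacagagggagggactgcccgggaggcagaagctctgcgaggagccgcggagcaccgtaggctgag
Cdhr5: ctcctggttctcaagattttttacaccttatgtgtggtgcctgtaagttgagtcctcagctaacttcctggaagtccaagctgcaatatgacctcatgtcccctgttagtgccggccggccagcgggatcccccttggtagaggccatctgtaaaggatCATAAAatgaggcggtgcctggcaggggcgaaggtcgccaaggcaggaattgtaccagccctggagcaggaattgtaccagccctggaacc
Lgals4: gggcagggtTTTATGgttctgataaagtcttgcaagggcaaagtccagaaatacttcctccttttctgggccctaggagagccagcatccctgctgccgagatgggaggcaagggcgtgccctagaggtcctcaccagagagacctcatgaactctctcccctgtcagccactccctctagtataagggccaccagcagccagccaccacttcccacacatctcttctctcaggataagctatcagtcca
Pla2g2a: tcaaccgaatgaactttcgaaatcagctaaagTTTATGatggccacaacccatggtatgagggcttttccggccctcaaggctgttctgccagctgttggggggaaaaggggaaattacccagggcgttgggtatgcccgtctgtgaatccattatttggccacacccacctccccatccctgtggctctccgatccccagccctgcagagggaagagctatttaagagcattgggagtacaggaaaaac
Of the 36 epithelial, absorptive and secretory genes higher in b, 25 had a window in the table and 5 of these held the motif (20%). Of the 37 genes lower in b, 28 had a window and 6 held it (21.4%), and 3828 of all 33469 windows held it (11.4%). Of the 151 such genes absent on all arrays 117 had a window and 14 held it (12%). The shares of the gene sets count genes, which can have several windows, and that of all 33469 counts single windows. The counts are small, the shares were not tested against each other, and a match is only a match of letters. Cdh17 and Krt19 have no entry in the table.

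Crypt genes included bright progenitor genes but not the stem cell markers. Sox4, a factor of progenitors, had 9154 and 10466 and 5749.7 and 5489. Slc12a2, the basolateral chloride transporter of crypt cells, had 2948 and 3123 and 4892 and 5581, and the receptor Ephb3, a Wnt target that positions crypt cells, 1893 and 1937 and 1282 and 1174. Lgr5, the marker of crypt base columnar cells, had 241 and 202 and 85.2 and 188, between the thresholds, and the sets did not overlap but were not called apart (limma adjusted p 0.0698). Ascl2, its partner factor, was absent at 57.2 to 99.9. Smoc2 was absent too, as were Hopx and Tert, named in quiescent stem cells. Of 18 measured 7 were present and 7 absent (38.9% each), near the 36.4% and 32.7% of all named genes. Cd44, the hyaluronan receptor and Wnt target, had 655 and 536 against 1734 and 1837 (1.51 ± 0.10, limma adjusted p 3.36e-06). Aqp1, a water channel, had 1118 and 1019 against 3009 and 2568, and Myc 849.6 and 845 against 1377 and 1328. In all 7 crypt genes were higher in b and 3 lower, of 11 tested, against 25.9% and 23.3% of all named genes tested.

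Absorptive genes were low. Of 74 measured 8 were present (10.8%, against 36.4% of all named genes) and 45 absent (60.8%, against 32.7%). The median mean signal was 44.4, against 317 over all named genes. The brush border linker Ezr, ezrin, had 13067 and 12435 and 8772 and 8271, and its partner Nherf1 5156 and 4135 and 3335 and 3125. Both are also used by other polarised cells. Enpep, a membrane aminopeptidase, lay at 1169 to 1365, with a second probe set under 100 throughout. The digestive enzymes that define the enterocyte were absent: Si, sucrase-isomaltase, at 0.954 to 4.91, Alpi, intestinal alkaline phosphatase, at 11.3 to 56.9, and Treh, trehalase, at 2.63 to 3.33. Vil1, the microvillus protein villin, had 33.3 and 6.23 and 86.9 and 123.

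The 3 fatty acid binding proteins of the absorptive lists, Fabp1, Fabp2 and Fabp6, were all absent, at 2.31 to 6.70, 2.09 to 11.2 and 1.48 to 5.58. Of 5 apolipoproteins none was present, and Apoa4 and Apoa1 were absent. The glucose transporter Slc5a1, the fructose transporter Slc2a5 and the peptide transporter Slc15a1 were absent, at 9.20 to 36.5, 6.64 to 88.9 and 3.85 to 24.7. Atp1b1, a subunit of the sodium pump of all cells, and Slc28a2, a nucleoside transporter, were present. Slc28a2 had 2414 and 2262 against 698 and 746. In lipid handling Acsl5, which activates fatty acids, the lipid droplet coat Plin2 and Dgat1, which makes triglyceride, were present.

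Some absorptive genes differed between the sets. Ggt1, gamma-glutamyltransferase, had 127 and 99.98 against 1243 and 1023 (2.86 ± 0.14, limma adjusted p 4.04e-07). Cyp3a9, a drug-metabolising enzyme, had 24.2 and 6.16 against 389 and 441, and the lipoprotein receptor Scarb1 39.8 and 35.9 against 262 and 289. Anpep, aminopeptidase N, had 79.98 and 98.7 against 219 and 241. The alcohol dehydrogenase Adh1c went the other way, with 456 and 474 against 73.9 and 27.3. Over the 26 tested absorptive genes 9 were higher and 5 lower in b, against 25.9% and 23.3% of all named genes tested, and 6 of the 26 had passed the filter through 1 set.

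Secretory genes were lower still, with 4 of 67 measured present (5.97%, against 36.4% of all named genes) and 54 absent (80.6%, against 32.7%). All 6 mucins were absent, among them Muc2, the goblet cell gel mucin, at 22.4 to 42.7 and Muc13 at 8.01 to 48.5. Tff3, the goblet cell trefoil peptide, had 146 and 102 and 108 and 130.0, just above 100 with the sets overlapping. The goblet cell regulator Spdef was absent at 4.06 to 47.3. Creb3l1, a regulator of secretory and collagen-making cells, was the 1 present member of the goblet list at 1029 to 1456.

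Of 19 Paneth and antimicrobial genes 1 was present, Duox2, the peroxide-making oxidase of the epithelial surface, with 2691 and 2703 and 3839 and 3892. Lyz2, Defa5 and Mmp7 were absent at 25.8 to 48.5, 6.73 to 37.4 and 0.905 to 20.3. Antimicrobial genes differed between the sets: Pla2g2a, the secreted phospholipase of Paneth cells, had 65.6 and 13.03 against 1252 and 1392. The lectins Reg3g and Reg3b had 11.9 and 23.9 against 319 and 318, and 4.39 and 33.98 against 219.9 and 285. The limma log2 differences of the 3 genes were 4.00 ± 0.24, 2.44 ± 0.18 and 2.15 ± 0.24, and each had passed the filter through b alone. With 200 added to each signal the differences of Reg3g and Reg3b were 1.25 and 1.04.

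Of 28 enteroendocrine and tuft genes 24 were absent, the largest number in any list here. Chga, chromogranin A, had 1.68 to 4.09, and the lineage factors Neurog3 and Neurod1 3.28 to 30.8 and 2.50 to 20.8. Cpe, which trims prohormones, was present at 1106 to 1705. Dclk1, used as a tuft cell marker, was present with 2253 and 2515 and 3178 and 2864, while Pou2f3, the factor that makes tuft cells, was absent at 24.6 to 32.4. Olfm4, Sox9, Lct, Atoh1, Trpm5 and Cdh5 were not analysed here.

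**Figure D4:**
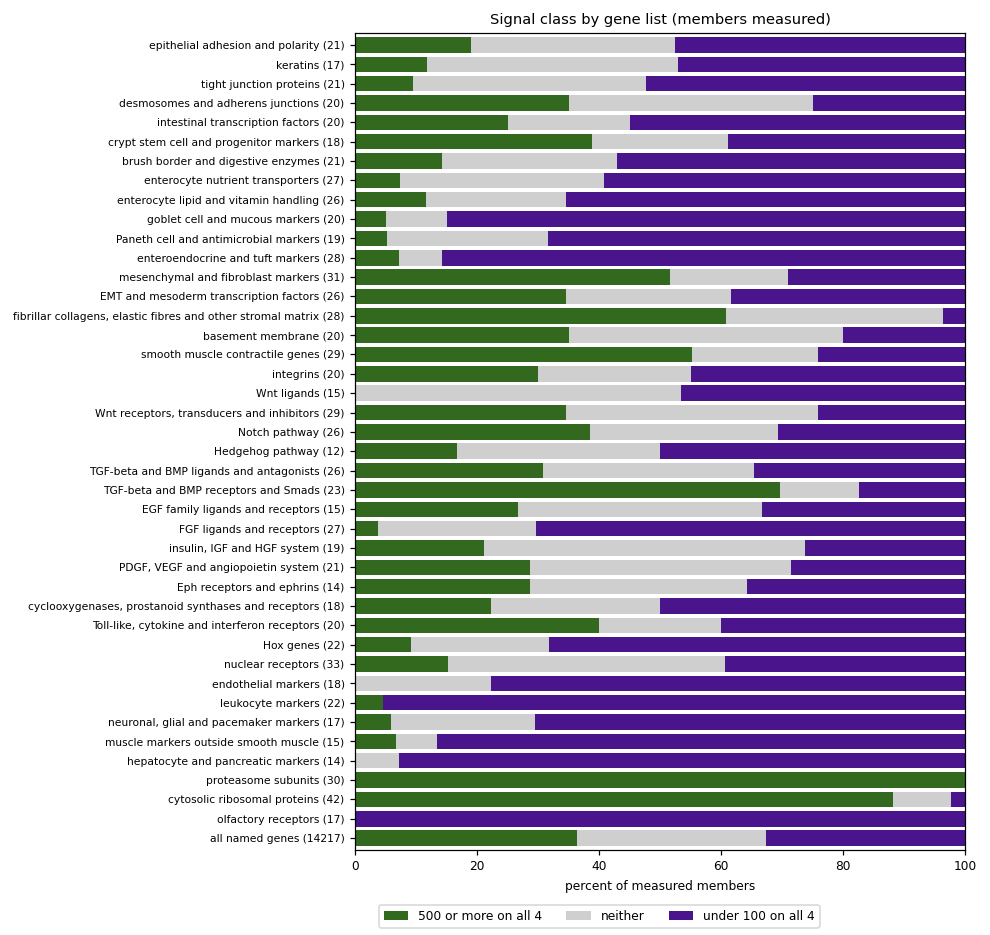
Percent of the measured members of each list with a signal of 500 or more on all 4 DMSO arrays (green), under 100 on all 4 (purple) or neither (grey), with the number measured in brackets and all named genes at the bottom. The mesenchymal lists have more green than all named genes (36.4%) except for transcription factors and basement membrane, and the secretory lists the most purple among the gut lists.

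Mesenchymal genes were bright. Of 134 measured 65 were present (48.5%, against 36.4% of all named genes) and 31 absent (23.1%, against 32.7%). The median mean signal was 730.3, against 317 over all named genes. Fn1, fibronectin, had 15829.8 and 16059 and 13796 and 13208. S100a4, a calcium-binding protein of motile fibroblasts, had 13630.1 and 11844 and 18692 and 17646, and the collagen chaperone Serpinh1 10201 and 9205 and 13529 and 12792. Some fibroblast surface markers were absent from the same arrays: Pdgfra at 3.46 to 39.3, Pdgfrb at 10.6 to 87.7 and Thy1 at 23.7 to 75.3. Other surface markers of fibroblasts, named after their values were seen, were present, with the collagen receptor Ddr2 at 1236 to 1601 and Cd248, endosialin, at 567 to 1027. Lum, a proteoglycan of fibroblasts, and Cdh2, N-cadherin, were absent as well, Cdh2 from each of its 3 probe sets. In bulk RNA a mixture of cells and a mixed program in each cell cannot be told apart, nor can fewer cells of a type and less RNA per cell.

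Matrix genes were the list with the largest present share of the mesenchymal lists, 17 of 28, with 1 absent, Fbn2. Among them were Col1a1, the first chain of type I collagen, with 13537 and 12708 and 20679 and 19228, and Col1a2, the second chain, with 8890.2 and 8745 and 22133 and 22324. Col1a2 was higher in b (1.33 ± 0.037, limma adjusted p 2.22e-08). Col5a2 had 14258 and 14634 and 18702 and 18506, and Ccn2, the matricellular growth factor CTGF, 16020.0 to 17468. Of 27 stromal matrix genes tested 17 were higher in b and 5 lower, against 25.9% and 23.3% of all named genes tested. The list's median log2 difference was 0.60, and 4 had passed the filter through 1 set. Thbs2, thrombospondin 2, had 105 and 88.7 against 1681 and 1919. Vcan, versican, had 102 and 82.7 against 1254 and 1301, and the elastic fibre protein Emilin1 126 and 102 against 1144 and 1229.

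Basement membrane genes ran the opposite way, with 12 lower and 3 higher of 16 tested, against 23.3% and 25.9% of all named genes tested, and a median of -0.41. Laminin chains Lamc1, Lamb1, Lamb2 and Lama5 and the linker Nid1 were present, and the gut chain Lama1 absent at 9.55 to 68.7. Lamc1 had 6006 and 6121 and 4849 and 5169.9. Col4a1, the major type IV collagen chain, had 709 and 800.1 against 108 and 80.1 (-2.49 ± 0.14, limma adjusted p 1.10e-06). Nid2, the second nidogen, had 289.5 and 352 against 3098 and 3484, with the sign turned.

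Other mesenchymal genes with large differences were Mgp, matrix Gla protein, which inhibits calcification, with 23596 and 23589.6 against 3775 and 3241, and Cdh11, the cadherin of mesenchyme, with 7235 and 8279 against 1329 and 1286. The log2 differences were -2.74 ± 0.065 and -2.52 ± 0.074 (limma adjusted p 1.21e-08 and 2.81e-08). Dcn, decorin, had 4850.0 and 4215 and 1986 and 1355. Over the 21 fibroblast genes tested 9 were higher and 6 lower, against 25.9% and 23.3% of all named genes tested.

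Transcription factors of mesoderm and of the epithelial to mesenchymal transition were also split. Wt1, a factor of mesothelium and kidney, had 6409 and 7102 against 2466 and 2351 (-1.47 ± 0.066, limma adjusted p 2.57e-07). Tbx18, of mural cells and mesothelium, had 2624 and 2641 and 2814 and 2443, with the sets overlapping. Prrx2 had 2021 and 1904 and 3737 and 3974, and Zeb2, a repressor of E-cadherin, 918 and 889 and 1109.5 and 1192. Twist1, Foxf1 and Prrx1 were absent at 3.45 to 29.04, 8.73 to 70.1 and 3.51 to 10.7. Gata2 and Nkx2-3, a homeobox factor of gut mesoderm, had 947 and 881 against 292 and 270.2 and 807 and 605 against 243 and 270.3.

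Contractile genes divided by type. Genes shared by many adherent cells were bright, with Cnn3, calponin 3, at 13233 to 15854, Tpm1, a tropomyosin, at 11774 to 13738 and Cald1, caldesmon, at 6454 to 7198. Acta2, smooth muscle actin, had 405 and 426 and 443 and 443, just under 500 on every array, and was not called between sets. Tagln, SM22, had 1866 and 1416 and 1349 and 639, so that array 2b alone held the low value of the 4. Of the genes of mature smooth muscle several were absent, with Cnn1 at 15.2 to 91.9, Actg2 at 23.9 to 35.5, Lmod1 at 1.31 to 35.7 and Myl9 at 4.17 to 10.4. Smtn, smoothelin, named after its values were seen, was present at 779 to 1215, and Myh11, smooth muscle myosin, had 40.3 and 43.3 and 128 and 50.9. Des, desmin, had 112 and 150.4 and 112 and 148.4, and the sets overlapped. Csrp2, a LIM protein of smooth muscle, had 198 and 220.3 against 1364 and 1567.

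Over the signalling lists 90 of 340 genes measured were present (26.5%, against 36.4% of all named genes) and 135 absent (39.7%, against 32.7%). Of 20 integrins 6 were present and 9 absent. Itgb1, the common beta chain, had 9295 and 8769.9 and 9759.5 and 10145, and Itgav 3328 and 3543 and 2295 and 2242. The hemidesmosome pair was present on all arrays and higher in b: Itga6 had 936 and 966 against 2352 and 2508, and Itgb4 634 and 594 against 852 and 1097. The fibronectin receptor chain Itga5 had 247 and 271 against 538 and 537. The laminin receptor chain Itga7 was absent, as were the leukocyte chains Itgal and Itgam. Itga11, a collagen receptor chain of fibroblasts, had 0.977 and 1.59 against 309.7 and 292 (2.77 ± 0.18). It had passed the filter through b alone, and its plain signals are within the range of the bacterial probe sets. The size depends on the constant added to each signal, with 4.20 at 16 and 1.31 at 200.

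Wnt receptors were present without a present ligand. Of 15 ligands and R-spondins none reached 500 on all arrays and 7 were absent. Of 29 receptors, transducers and inhibitors 10 were present (34.5%), near the 36.4% of all named genes. Wnt11 had 797 and 712 against 272 and 262. Wnt4 had 252 and 280.1 against 799.8 and 633, and Wnt2 121 and 80.5 against 569 and 775. Each of these ligands was above 500 in 1 set and not in the other. Fzd1 and Fzd2, frizzled receptors, lay at 1649 to 2160.2 and 1230.1 to 1545, and the R-spondin receptor Lgr4 at 1248 to 1434. The co-receptor Lrp6 had 891 and 1007 on the plain arrays and 1677 and 1699.6 on the b arrays. Tcf7l2, the nuclear effector in intestinal epithelium, had 3056 and 3194 and 2395 and 2643. Its relative Lef1 was absent at 30.9 to 82.2, and Tcf7 had 149.8 and 208 against 797 and 757. The secreted inhibitors Sfrp2 and Sfrp4 had 85.7 and 105 against 508 and 522 and 357 and 245 against 857 and 711.

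In the Notch pathway several processing genes were present and the receptors were not. The shedding proteases Adam10 and Adam17 had 3048 to 6138 and 1891 to 2869, the gamma-secretase subunit Psenen 1925 to 3448 and the DNA-binding partner Rbpj 1519 to 2089. None of the 4 Notch receptors was present and the 3 Delta ligands Dll1, Dll3 and Dll4 were absent. Target genes were split: Hes1 had 1712 and 1696 and 2256 and 2388, Hey2 4212 and 4048 and 2169 and 1899, and Hes5 and Hey1 were absent. Psen2, a catalytic subunit, had 706 and 782 against 139 and 142 (-2.06 ± 0.12, limma adjusted p 1.23e-06).

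Hedgehog ligands Shh, Ihh and Dhh were absent, at 1.31 to 8.38, 5.43 to 46.4 and 41.2 to 91.2. The transducer Smo was present at 945 to 1757 and the effector Gli2 at 752 to 1223, and the target gene Gli1 was absent at 25.1 to 52.6.

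TGF-beta and BMP receptors and Smads were the signalling list with the largest present share, 16 of 23, and a median mean signal of 1474. All 8 Smads and all 4 Id genes, targets of BMP signalling, were present. Id3 had 13593 and 14562 and 7645 and 6852, Id1 4442 and 4570.1 and 2002 and 1596 and Id4 3768 and 3486 and 1288 and 992. Each was higher on both plain arrays, and the limma log2 difference of Id4 was -1.64 ± 0.11 (adjusted p 2.73e-06). Bmp4, a BMP of mesenchyme, had 3928 and 4143 against 661 and 766 (-2.42 ± 0.086, limma adjusted p 8.38e-08), and its antagonist Nog 488 and 525 against 56.1 and 38.4. Smad9, a BMP-responsive Smad, had 2280.2 and 2541 against 515 and 561. Of 19 tested in the receptor and Smad list 11 were lower in b and 3 higher, against 23.3% and 25.9% of all named genes tested, with a median of -0.50. The activin subunit Inhbb had 2410.2 and 2281 against 417 and 324, whereas Tgfb2 lay at 1419.9 to 1686. Bmp7 and Bmp5 were absent.

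Among growth factor receptors Egfr was present, at 2063 to 3323, while Erbb3 and Erbb4 were absent. Its ligand Areg, amphiregulin, had 1634 and 1362 against 706 and 655, and Hbegf 585 to 751. Egf was absent at 4.24 to 36.5. In the FGF list 19 of 27 were absent and 1 present, the receptor Fgfr3, with 2602 and 2407 and 4347 and 4511. Fgfr2, the epithelial receptor, had 409.9 and 535 against 84.1 and 80.6, and Fgf13, an intracellular FGF relative, 1479 and 1459 against 315 and 278. Of 8 FGF genes tested 5 were lower in b and 3 higher, against 23.3% and 25.9% of all named genes tested, and 4 had passed the filter through 1 set.

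Igf1r, the IGF receptor, had 2422 and 2805 and 1335 and 1387, and the binding protein Igfbp2 12635 and 11014 and 4201 and 4419. Igf2 had 1047 and 1090.0 against 72.5 and 62.3 on the brightest of 4 probe sets, the other 3 being absent (-3.25 ± 0.12). It had passed the filter through the plain arrays alone. Met, the HGF receptor, had 872 and 886 against 219 and 241, while Hgf itself was absent at 4.40 to 23.6. Of 13 tested 7 were lower in b and 2 higher, against 23.3% and 25.9% of all named genes tested. Of the 13, 3 had passed the filter through 1 set.

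Kitlg, stem cell factor, had 3416 and 4049 against 1206 and 1140.0, and its receptor Kit was absent at 4.27 to 12.1. Vegfa lay at 866 to 1082. Angpt2, an angiopoietin, had 875 and 1007 against 15.6 and 24.8, and its receptor Tek 212 and 208 against 739 and 702, with opposite sign. Epha2 was present at 2318 to 3033, and its ligand Efna1 had 2323 and 1921 against 707 and 718.

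Cyclooxygenase genes bear on the drugs of the series, which inhibit these enzymes. Ptgs2, the inducible cyclooxygenase, was present in vehicle-treated cells with 2309 and 2358 and 1386 and 1416 (-0.72 ± 0.071, limma adjusted p 3.41e-05). Ptgs1, the constitutive form, was absent at 2.89 to 41.97 on the brighter of 2 probe sets, both of them absent. Pla2g4a, which frees arachidonic acid, had 1566 and 1638 and 1146 and 1454. Ptgis, prostacyclin synthase, had 2724 and 2377 and 1811 and 1425, and Ptges3, a synthase that is also a cochaperone, 9914 to 10812. Of 6 prostanoid receptors measured none was present and 4 were absent. Ptger4, the EP4 receptor of prostaglandin E2, had 45.6 and 95.02 and 156 and 234.

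Receptors of inflammation were present for TNF, interleukin 1 and interferon gamma. Tnfrsf1a had 3299 and 3208 and 4017 and 3993, and Il1r1 2228 and 2613 against 749 and 690.3 (-1.68 ± 0.10, limma adjusted p 1.09e-06). Ifngr2 had 2297 and 2161 against 972 and 949. None of 4 Toll-like receptors was present, and Tlr2 was absent at 4.35 to 23.2.

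Positional and hormonal regulators gave few present genes. Of 22 Hox genes Hoxd8 and Hoxb6 were present, at 695 to 1226 and 549 to 1075, and 15 were absent. Among nuclear receptors Nr2f2, COUP-TFII, had 3712 and 3750.0 and 2274 and 1994, and the glucocorticoid receptor Nr3c1 3479.7 and 4019 and 1722 and 1699. Thrb, a thyroid hormone receptor, had 313 and 362 against 2660.2 and 3254. Esr1, Esr2 and Pgr, the receptors of oestrogen and progesterone, were absent. The immediate early gene Nr4a1 had 3422 and 3916 against 495 and 698, and Nr4a3 1591 and 1585 against 268 and 317.

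Markers of other cell types were mostly low, with 3 of 85 measured present (3.53%, against 36.4% of all named genes) and 72 absent (84.7%, against 32.7%). Of 22 leukocyte genes 21 were absent, Ptprc at 11.5 to 27.8 among them, and Cd14, the lipopolysaccharide co-receptor, was present at 3129.7 to 3805. No endothelial gene of 18 was present, with Pecam1 at 1.64 to 13.99 and Vwf at 3.73 to 23.9. Their summed signals were 766 and 778 on the plain arrays and 1590 and 1499 on the b arrays, where Tek and Flt1 were higher. S100b, of glia, had 46.8 and 55.1 against 703 and 681 while Sox10 was absent at 8.40 to 39.2. Uchl1, a neuronal hydrolase, was present at 2093 to 2585. Myh1, a skeletal muscle myosin, was present with 6276 and 5360 on the plain arrays and 2088 and 2077 on the b arrays. The lowest signal of any of its 5 probe sets was 471, and Acta1, Myh6 and Myh7 were absent. The leukocyte list summed to 4091 and 4298 on the plain arrays and 3732 and 3933 on the b arrays.

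Genes outside the lists were also among the largest differences between the sets. The largest difference higher in b was that of A2m, the protease inhibitor alpha-2-macroglobulin, with 43.8 and 63.7 against 3800.3 and 4089. Tnn, tenascin N, had 3.83 and 4.97 against 1855 and 1437. Ppp1r1b, the phosphatase inhibitor DARPP-32, had 41.4 and 16.1 against 1937 and 2264, and Fetub, fetuin B, 8.30 and 28.7 against 1142 and 1551. F13a1, the transglutaminase of clotting, and Dact1, a modulator of Wnt signalling, were also among the first 10. The limma log2 differences of these 6 genes ran from 3.73 for Dact1 to 5.27 for A2m. Each was under 100 on both plain arrays and had passed the filter through b alone, so each had to differ.

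Higher on the plain arrays were Npl, a sialic acid lyase, with 1167 and 1507 against 32.9 and 37.04, and Ckmt1, mitochondrial creatine kinase, with 775 and 721 against 5.31 and 3.50. Wfdc18 had 5504 and 5196 against 385 and 300.4, and Gjb2, the gap junction protein connexin 26, 4641 and 4975 against 347 and 307. Slit3, a guidance ligand, had 2051 and 2612 against 170.4 and 153, and Agtr1a, an angiotensin receptor, 3551 and 3589 against 352 and 273. Mpeg1, a macrophage gene, had 1085 and 1027 against 58.3 and 64.3, with 21 of 22 leukocyte markers absent on the same arrays. Of the named genes tested 383 were called with at least a 2-fold difference higher in b and 351 lower, so the sets differed in both directions to a like extent.

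**Figure D5:**
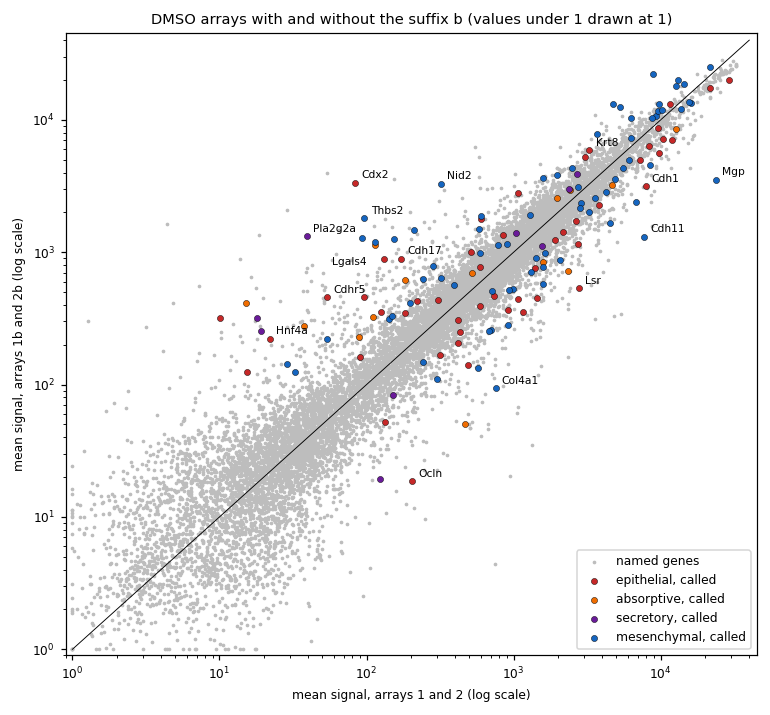
Mean signal of each named gene on plain arrays 1 and 2 (horizontal) and on arrays 1b and 2b (vertical), both on log axes, with called members of 4 gene families coloured and the line of equality drawn. Cdx2, Pla2g2a, Thbs2 and Nid2 lie above the line, and Mgp, Cdh11, Lsr, Col4a1 and Ocln below it.

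Where the thresholds fell among listed genes can be seen from their neighbours. Just inside 500 lay Nr2f6 (506 to 792), Cdca7 (509 to 1021) and Smad9, and just outside Nr4a1, Mfap4 (489 to 675) and Dgat2 (485 to 569). Just inside 100 lay Ascl2, Mme (49.1 to 99.7) and Krt23 (32.8 to 98.5), and just outside Wnt9a (73.1 to 100.1), Kdr (2.26 to 100.1) and Cgn (44.2 to 101).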

How the data were processed

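The 4 DMSO arrays of the series' 14 are single-channel Affymetrix arrays of IEC-6 RNA. Per the labels, total RNA was labelled in 2 rounds of in vitro transcription, and the authors scaled the deposited intensity of all probe sets to a target signal of 500. The software that made the signals is not given in the sources used here. 31099 probe sets were read, 57 of them controls. The platform annotation gave 1 gene symbol for 20832, several for 436 and none for 9831, which are unnamed here. Symbols were updated through gene identifiers in RefSeq's table for GRCr8, and promoter windows are RefSeq's.

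Of several probe sets for a gene, the one with the largest average log2 signal on the 4 arrays was taken. Present means 500 or more and absent under 100, on all 4. The label sets (1 and 2; 1b and 2b) were compared with limma 3.58.1 in R 4.3.3 on log2(signal + 50), with an intensity trend, over probe sets at 100 or more on at least 2 arrays, and Benjamini-Hochberg adjustment over all probe sets tested. The test was tested on simulated data with independent noise and far fewer changed probe sets than differed here. That does not check the number called. The number of arrays limits the precision. Arrays with the same digit did not deviate together from their set means (r of -0.0458), and the main fit does not pair them. With 2 arrays a set this r cannot decide whether the digit marks a shared origin.

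The 41 gene lists (1033 genes, 894 measured; the olfactory list leaves out Olr1, the oxidised LDL receptor) and the arrays were chosen with earlier results of these data known. Named genes are the 30 with the highest lowest signal, cell type markers, up to 6 present and 6 absent members a list, up to 3 called members a list, the 10 largest called differences each way with a mean signal of 500 or more in the higher set, and 3 neighbours of each threshold. Alternatives were other thresholds, pseudocounts, filters and probe set rules, quantile normalisation, each label set alone, leaving out each array, no trend, all 14 arrays and the array digit as a block.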

Additional observations from a re-analysis of the deposited data

Results flagged for a closer look

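Of 281 named genes tested on the 4 arrays, 3 had an array far from the other 3, with a gap over the range above Dixon's 95% critical value for 4 samples. Chance gives about 1 in 20 for 4 like arrays. The arrays fall into 2 sets, and many of the genes were named for a difference between them. A gene whose sets stand apart tends to a small gap at either end. The rate therefore does not apply here, and the count is not compared with it. Tgfb3, a TGF-beta ligand, had 1785 on array 1 and 1650.1, 1645 and 1638 on arrays 2, 1b and 2b (gap over range 0.912). Myh11, smooth muscle myosin, had 128 on array 1b and 40.3, 43.3 and 50.9 on arrays 1, 2 and 2b (0.836). Wnt9a had 73.1 on array 2b and 96.0, 98.0 and 100.1 on arrays 1, 2 and 1b (0.862).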

How the results depend on the processing

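The count of named genes present was 3239 with a threshold of 1000 in place of 500. Under the other 11 alternatives for it, and under all 12 for the count absent, the count stayed within 1.5 times. Between the label sets 7447 probe sets differed with the array digit as a replicate block, and 5553 to 6205 when an array was left out. Without the signal filter 6015 did, with a filter at 500 5313, and without the intensity trend 6435. Under quantile normalisation 12 genes of very high signal changed sign: Eef1b2 to 0.079, Eef1g to 0.025, Rpl3 to 0.044, Rpl6 to 0.111, Rpl11 to 0.030, Rpl12 to 0.043, Rpl19 to 0.124, Rpl35a to 0.008, Rps6 to 0.041, Rps23 to 0.085, Txn1 to 0.200 and Vim to 0.121. When an array was left out, Des ranged from -0.163 to 0.141 and Tff3 from -0.215 to 0.153, and neither was called. Of 1856 gene values under alternatives, 71 lost their call and 16 changed sign, 28 of these together under quantile normalisation. Tagln lost its call under 5 alternatives and Cd14 under 6. List counts moved by over 1.5 times in 50 of 492 values for present and 43 of 492 for absent, mostly with other thresholds or with the lowest probe set of a gene. Signals up to 50.7 lie within the range of the bacterial probe sets. Those from there to 100 lie above it but under the cut for absent. No order is read among signals under 100.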

Other observations

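Genes under 100 on both arrays of a label set and at 500 or more on both of the other included several not described above, picked here after their values were seen. Higher in b were the acute phase genes Saa3 (52.5 and 63.6 on the plain arrays, 890.4 and 853 on the b arrays) and Serpina3n (34.1 and 51.0, then 628 and 969). Car1, a carbonic anhydrase of colon epithelium, had 46.0 and 32.2, then 564 and 963. The cystine transporter Slc7a11 had 43.2 and 57.2, then 527 and 600.0, and the cholesterol exporter Abcg1 41.8 and 83.0, then 952 and 991. Rbp4, the retinol carrier, had 1.34 and 31.5, then 616 and 675. Higher on the plain arrays were Aldh1a1, which makes retinoic acid, with 651 and 694, then 52.8 and 39.2, and the semaphorin Sema6d, with 674 and 662, then 54.7 and 46.7. Scin, an actin-severing protein, had 666 and 617, then 94.3 and 76.6. These genes were chosen for the difference between sets, so no test is given.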
